A study of Mus musculus with 9 samples.

Results

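The genes described are 48 mouse genes of DNA repair and of the damage checkpoint, each taken from the array row that the platform annotation maps to that gene symbol alone. Of these, 46 were measured, out of 19938 genes with such a row, and a gene with several rows was read from the one with the highest mean. Xrcc2 and Rbbp8 had no such row and were not analysed here. RNA from 3 kinds of C57BL/6 mouse cells was read on 9 Affymetrix Mouse Gene ST arrays, 3 for each kind. The dedifferentiated cells are adult cardiac fibroblasts after a dedifferentiation that the study's title describes as based on protein. The ES cells are embryonic stem cells labelled C57, the pluripotent cells of the early embryo grown in culture. The adult cardiac fibroblasts themselves, the connective tissue cells of the heart, are the reference for both. No transgene, further treatment, age or sex is given in the labels, and the source label of the fibroblasts also mentions ES cells, so the sample titles were followed. Whether replicates are separate animals, separate cultures or repeats of one is not stated. All p-values thus refer to the spread among these 3 arrays a group, which may be technical, and that number limits the precision.

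Cells repair DNA by several routes that divide the work by the kind of lesion. Homologous recombination copies the sister chromatid to mend a break or a collapsed replication fork, end joining ligates broken ends directly, and the Fanconi anaemia proteins unhook crosslinks between the strands. Mismatch repair corrects copying errors, base excision repair removes damaged bases, and the checkpoint kinases halt the cell cycle while repair proceeds. Embryonic stem cells cycle fast and are known for relying on recombination, and many repair genes are transcribed as cells enter S phase, in part through E2F transcription factors.

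The labelled cell types were checked against their markers. Of 9 measured pluripotency markers, 9 were higher in dedifferentiated cells and 9 in ES cells than in fibroblasts, and their mean log2 level was 10.33 to 10.38 on dedifferentiated, 10.22 to 10.40 on ES and 3.97 to 4.27 on fibroblast arrays. Of 10 fibroblast markers, 10 were lower in each, with mean levels of 5.55 to 5.64 on dedifferentiated, 5.17 to 5.23 on ES and 10.69 to 10.81 on fibroblast arrays. Macrophage and leukocyte markers also differed, at 4.14 to 4.17 on dedifferentiated, 4.25 to 4.32 on ES and 5.62 to 5.75 on fibroblast arrays. Of these 10 markers, 5 were lower and 1 higher in dedifferentiated cells than in fibroblasts, and the same numbers were found for ES cells. Endothelial markers lay at 5.20 to 5.28, 4.83 to 4.86 and 4.65 to 4.88 on dedifferentiated, ES and fibroblast arrays, with 3 of 8 higher and 1 lower in dedifferentiated cells than in fibroblasts. Of 8 cardiomyocyte markers, 0 were higher or lower by at least 1 log2 unit in either comparison (limma), also at an unadjusted p under 0.05. The part of these other cell types in the repair results was not tested. In bulk samples such as these, fewer cells of a type and less RNA per cell cannot be told apart.

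The stretches of DNA before the start sites of these genes were examined for the E2F words, because several members differed together. RefSeq start windows (assembly GRCm38.p6, from 250 bases before the start to 50 after it, 300 in all) were found for 40 of the 46 measured genes. No window was found for Nbn, Prkdc, Rad50, Rad54b, Fancd2 and Exo1. The words TTTCCCGC, TTTGGCGC, TTTCGCGC and TTTGCCGC were searched on both strands, where they may overlap. At least 1 of them stood in the windows of 11 of the 40 genes (27.5%), against 744 of 32851 windows in the whole table (2.26%) and 607 of 21263 windows of protein-coding genes (2.85%). Counted by window, the repair genes had the words in 12 of 43 (27.9%). The 11 genes are Bard1, Brca2, Chek2, Clspn, Fancg, Mdc1, Msh3, Msh6, Rad51c, Topbp1 and Xrcc6. A match is a description of the letters and neither a binding site nor a cause.

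The stretches below show how such words lie in 7 of these genes, chosen to hold genes that were higher in both comparisons (Msh3, Brca2, Mdc1, Bard1), higher in ES cells (Chek2, Topbp1) and called in neither (Fancg). Each runs 5′ to 3′ on the gene's own strand and ends at the base before the table's start, and capitals mark the E2F words. Their positions are chr13:92355004-92355223 (minus strand) for Msh3, chr5:150522441-150522620 (plus) for Brca2, chr17:35841358-35841497 (plus) for Mdc1, chr1:71102973-71103192 (minus) for Bard1, chr5:110839813-110839982 (plus) for Chek2, chr9:103305187-103305326 (plus) for Topbp1 and chr4:43010302-43010441 (minus) for Fancg. The stretches of Brca2, Chek2, Topbp1 and Fancg lie wholly inside the annotated span of their gene, and 169 of the 220 bases of Bard1 do, since the table's start is not the first base of that span.
Msh3: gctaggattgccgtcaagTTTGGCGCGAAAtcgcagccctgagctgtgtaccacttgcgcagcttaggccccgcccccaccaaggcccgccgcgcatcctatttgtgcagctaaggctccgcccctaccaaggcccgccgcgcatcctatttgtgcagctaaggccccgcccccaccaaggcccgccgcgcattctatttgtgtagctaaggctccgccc
Brca2: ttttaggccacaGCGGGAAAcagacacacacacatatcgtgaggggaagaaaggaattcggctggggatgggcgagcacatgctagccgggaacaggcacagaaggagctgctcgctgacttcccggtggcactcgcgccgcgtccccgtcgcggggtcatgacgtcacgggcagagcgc
Mdc1: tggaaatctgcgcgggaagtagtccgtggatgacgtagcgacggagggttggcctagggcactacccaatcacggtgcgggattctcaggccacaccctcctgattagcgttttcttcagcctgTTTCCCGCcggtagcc
Bard1: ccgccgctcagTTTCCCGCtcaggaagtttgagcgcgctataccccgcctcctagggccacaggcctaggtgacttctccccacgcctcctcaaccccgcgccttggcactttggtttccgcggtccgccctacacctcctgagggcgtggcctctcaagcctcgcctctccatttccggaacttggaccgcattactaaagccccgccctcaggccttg
Chek2: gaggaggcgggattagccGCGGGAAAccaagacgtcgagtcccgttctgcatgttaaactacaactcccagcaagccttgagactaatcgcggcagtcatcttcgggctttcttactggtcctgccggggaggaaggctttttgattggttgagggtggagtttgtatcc
Topbp1: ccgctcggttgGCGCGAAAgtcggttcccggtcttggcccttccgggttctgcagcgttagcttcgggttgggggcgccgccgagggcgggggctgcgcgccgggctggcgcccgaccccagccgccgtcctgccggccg
Fancg: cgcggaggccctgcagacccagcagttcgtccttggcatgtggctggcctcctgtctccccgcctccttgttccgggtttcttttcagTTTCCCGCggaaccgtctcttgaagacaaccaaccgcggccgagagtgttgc
In Msh3 the words on opposite strands overlap and form the run TTTGGCGCGAAA, which begins at -202, counting back from the start. In Brca2 and Chek2 the word lies on the opposite strand, so it reads GCGGGAAA, and in Topbp1 it reads GCGCGAAA. Bard1, Mdc1 and Fancg hold the word TTTCCCGC on the gene's own strand, in Mdc1 at -16.

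The first comparison asked how repair genes of the dedifferentiated cells differed from those of the fibroblasts. Members of every repair route were higher in dedifferentiated cells and none was lower by the same rule. Of the 46 genes, 23 rose by at least 1 log2 unit at an adjusted p under 0.05 (limma), against 8.79% of all genes. The number that fell was 0, against 10.1% of all genes, and it was also 0 at an unadjusted p under 0.05 with that size. The median difference of the 46 was 1.02 log2 units, against 0.01 for all genes tested. With no minimum size, 37 were higher and 2 lower at an adjusted p under 0.05 (25.0% and 22.4% of all genes), and at 1.5-fold 34 were higher and 0 lower (16.2% and 15.4%). The 3 dedifferentiated arrays lay wholly above the 3 fibroblast arrays for 39 genes and wholly below for 3, against 28.9% and 25.8% of all genes.

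The ES cells, set against the same fibroblasts, had 27 of 46 genes higher and 0 lower by the limma test, against 8.85% and 10.4% of all genes, with 0 lower at an unadjusted p and that size too. Their median difference was 1.14 log2 units, against 0.02 for all genes. With no minimum size the counts were 37 higher and 1 lower (26.1% and 22.9% of all genes), and at 1.5-fold 34 higher and 0 lower (16.5% and 15.9%). The arrays did not overlap for 37 higher and 1 lower (27.6% and 24.4%). Both comparisons share the fibroblast arrays, so their values are given side by side and were not set against each other as separate evidence. Just inside the size threshold lay Palb2 at 1.11 in dedifferentiated cells and Fance at 1.04 in ES cells, and just outside it Topbp1 at 0.94 in dedifferentiated cells and Fanca at 0.95 in ES cells. The plot of member values by array shows the level of each gene.

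**Figure D1:**
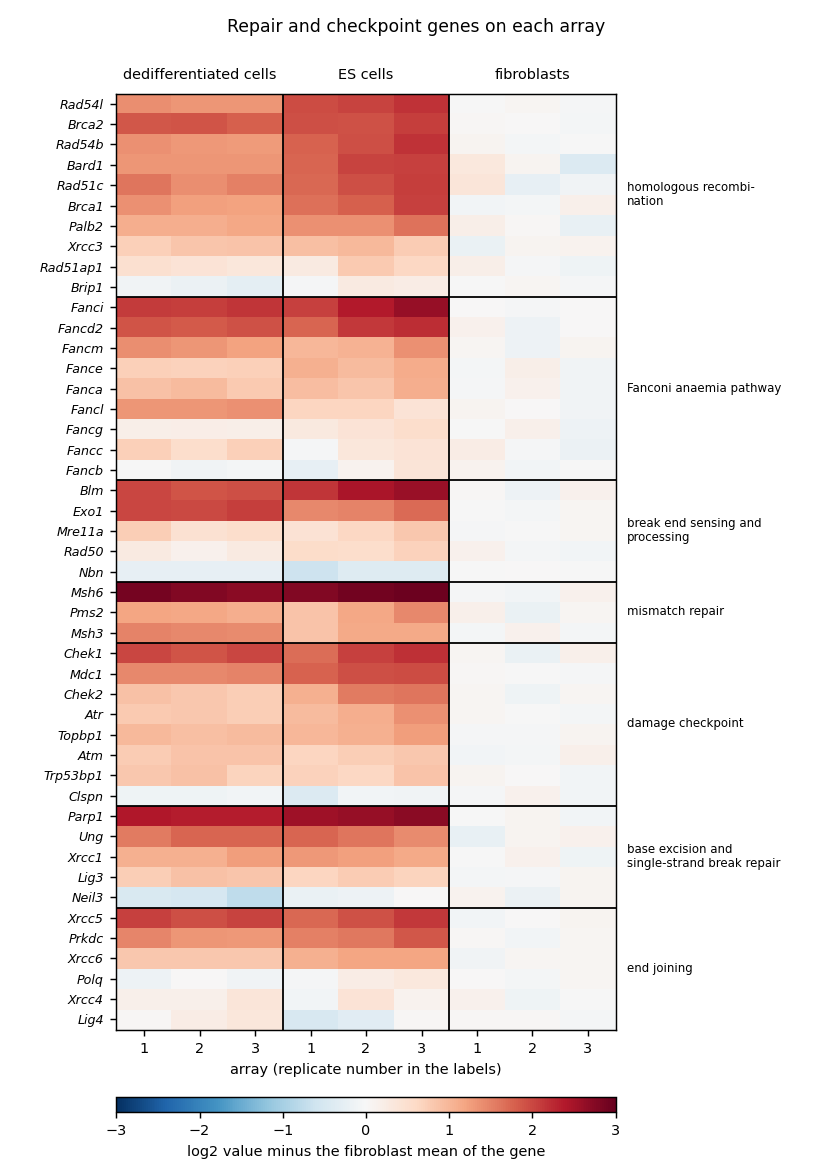
Each row is a measured repair gene and each column an array (dedifferentiated, ES, then fibroblast), with genes grouped by repair route. The colour is the log2 value minus the mean of the fibroblast arrays. Of the 46 genes, 39 had their lowest group mean in fibroblasts, a count not made over all genes.

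Among homologous recombination genes, 7 of 10 measured were higher in dedifferentiated cells and 7 of 10 in ES cells. The shares over all genes were 8.79% and 8.85%. The median difference of the 10 recombination genes from fibroblasts was 1.30 in dedifferentiated and 1.87 log2 units in ES cells. Brca2, a mediator of recombination at broken DNA, had log2 values of 7.03, 7.03 and 6.94 in dedifferentiated cells and 7.09, 7.05 and 7.23 in ES cells, against 5.19, 5.16 and 5.10 in fibroblasts. Both groups lay clear of the fibroblasts, and their arrays also did not overlap each other. The difference from fibroblasts was 1.85 (95% interval 1.68 to 2.01, 3.60-fold, adjusted p = 2.1e-09, limma) in dedifferentiated cells and 1.97 (1.81 to 2.14) in ES cells.

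Brca1, the ubiquitin ligase partner of Bard1, had 7.81, 7.67 and 7.65 in dedifferentiated and 8.09, 8.24 and 8.49 in ES cells, against 6.36, 6.38 and 6.58 in fibroblasts. The 3 groups stood apart, with ES cells on top and fibroblasts at the bottom. Brca1 rose by 1.27 log2 units (1.03 to 1.51) in dedifferentiated cells and by 1.84 (1.59 to 2.08) in ES cells. Bard1 gave 6.70, 6.70 and 6.70 in dedifferentiated and 7.13, 7.39 and 7.41 in ES cells, against 5.70, 5.44 and 4.97 in fibroblasts. It rose by 1.33 (0.98 to 1.67) in dedifferentiated and by 1.94 (1.60 to 2.28) in ES cells, and the fibroblast arrays were the most scattered. Bard1 had 3 rows in the table, and the other rows gave 0.77 and 0.64 in dedifferentiated cells and 1.03 and 0.79 in ES cells, so with the mean of its rows its difference in dedifferentiated cells was 0.91 and was not called.

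Rad54l (chr4:116094261-116123700), a motor protein of strand exchange, had 7.67, 7.62 and 7.62 in dedifferentiated and 8.25, 8.31 and 8.45 in ES cells, against 6.27, 6.35 and 6.25 in fibroblasts. The groups formed 3 separate levels, and the rises were 1.35 (1.18 to 1.52) and 2.05 (1.88 to 2.22) log2 units in dedifferentiated and ES cells. Its relative Rad54b rose by 1.32 (1.099 to 1.541) in dedifferentiated and 1.96 (1.74 to 2.18) in ES cells. Rad51c, which acts in recombination, rose by 1.503 in dedifferentiated and 1.91 in ES cells, and Palb2, which joins Brca1 to Brca2, by 1.11 and 1.46. Centring each array on its median put Palb2 at 0.99 in dedifferentiated cells, just short of the threshold.

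The other 3 recombination genes did not reach the size threshold. Xrcc3, which acts in the same route, differed by 0.80 in dedifferentiated and 0.88 in ES cells, and Rad51ap1, an accessory factor of strand exchange, by 0.41 and 0.56. Brip1, the helicase partner of Brca1, had 5.95, 5.89 and 5.75 in dedifferentiated and 6.02, 6.33 and 6.27 in ES cells, against 6.04, 6.10 and 6.02 in fibroblasts. Its differences from fibroblasts of -0.19 (-0.40 to 0.01) and 0.15 (-0.06 to 0.36) both had intervals that include 0.

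The Fanconi anaemia genes ranged from near the fibroblast level to more than 2 log2 units above it. Of 9 measured, 4 rose in dedifferentiated and 4 in ES cells, against 8.79% and 8.85% of all genes. The median differences of the 9 were 0.87 and 0.95. The pair whose ubiquitylation is the central step of the pathway, Fanci and Fancd2, rose most. Fanci had 7.42, 7.40 and 7.46 in dedifferentiated and 7.35, 7.70 and 7.93 in ES cells, against 5.33, 5.28 and 5.33 in fibroblasts. That is a difference of 2.11 (1.85 to 2.38, 4.33-fold) in dedifferentiated and 2.35 (2.08 to 2.61, 5.09-fold) in ES cells, whose arrays enclose those of the dedifferentiated cells. Fancd2 rose by 1.88 (1.62 to 2.14) in dedifferentiated and 2.03 (1.77 to 2.29) in ES cells, and Fancm, the translocase that recognises stalled forks, by 1.31 and 1.13.

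Fancl (chr11:26387084-26471883), the ubiquitin ligase that modifies that pair, was highest in the dedifferentiated cells. It had 6.56, 6.57 and 6.62 there and 5.88, 5.88 and 5.65 in ES cells, against 5.33, 5.25 and 5.14 in fibroblasts, so the groups did not overlap. It rose by 1.35 (1.16 to 1.54, adjusted p = 1.0e-07, limma) in dedifferentiated cells, while its difference in ES cells was 0.57 (0.38 to 0.76). Among the subunits of the core complex, Fanca differed by 0.87 and 0.95 and Fance by 0.70 and 1.04 in dedifferentiated and ES cells, with only Fance in ES cells past the threshold. Fance was at 0.92 there with arrays centred on their median and at 0.98 without fibroblast array 3. Fanca came past it in ES cells without fibroblast array 2 (1.02) or ES array 2 (1.01).

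The remaining core subunits stayed closer to fibroblasts. Fancc differed by 0.65 in dedifferentiated and 0.24 in ES cells. Fancg, whose start window holds an E2F word, had 5.96, 5.98 and 5.96 in dedifferentiated and 6.08, 6.20 and 6.31 in ES cells, against 5.78, 5.95 and 5.64 in fibroblasts. Its differences of 0.17 (-0.03 to 0.38) and 0.40 (0.20 to 0.61) were below the size threshold. Fancb, on the X chromosome, differed by -0.06 (-0.36 to 0.24) in dedifferentiated and 0.08 (-0.22 to 0.38) in ES cells.

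Among genes that sense and process broken ends, 2 of 5 rose in each comparison, against 8.79% and 8.85% of all genes. The 2 are the nuclease Exo1 and the helicase Blm. Exo1 had 8.03, 8.02 and 8.10 in dedifferentiated and 7.48, 7.53 and 7.72 in ES cells, against 6.02, 5.98 and 6.10 in fibroblasts. All dedifferentiated arrays lay above all ES arrays, and both above the fibroblasts. Exo1 rose by 2.02 (1.84 to 2.20, 4.05-fold) in dedifferentiated and by 1.54 (1.36 to 1.73, 2.92-fold) in ES cells. Blm, which unwinds recombination intermediates, rose by 1.94 (1.69 to 2.19) and 2.40 (2.14 to 2.65).

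The subunits of the complex that first binds a broken end differed less and not in one direction. Mre11a, its nuclease, differed by 0.58 in dedifferentiated and 0.62 in ES cells, and Rad50, its ATPase, by 0.23 and 0.59. Nbn, the subunit that recruits Atm, had 7.17 on each of the 3 dedifferentiated arrays and 6.80, 7.01 and 7.03 in ES cells, against 7.41, 7.43 and 7.40 in fibroblasts. Both groups lay below the fibroblasts, by -0.25 (-0.42 to -0.07, adjusted p = 0.022, limma) and -0.47 (-0.64 to -0.29, adjusted p = 0.00033). The equal values of the dedifferentiated arrays give an SD of 0, which was not read as precision. A second Nbn row gave -0.04 in dedifferentiated and 0.13 in ES cells, so the rows of this gene do not agree on a difference in ES cells.

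The 3 mismatch repair genes of the set rose in both cell types, while of 4 other measured genes of that route 1 rose in each. The shares over all genes were 8.79% and 8.85%. Msh6 (chr17:87975050-87990892, GRCm38.p6), which recognises single mismatches, had 9.94, 9.84 and 9.79 in dedifferentiated and 9.86, 9.96 and 10.02 in ES cells, against 7.03, 6.99 and 7.20 in fibroblasts. The dedifferentiated and ES arrays overlap, and both stand far above the fibroblasts. Msh6 had the largest difference of the 46 genes in each comparison, 2.79 (2.60 to 2.97, 6.90-fold, adjusted p = 1.8e-10, limma) in dedifferentiated and 2.88 (2.69 to 3.06, 7.34-fold) in ES cells. Msh3, which recognises small loops, had 7.10, 7.06 and 7.03 in dedifferentiated and 6.46, 6.75 and 6.74 in ES cells, against 5.54, 5.73 and 5.55 in fibroblasts. It rose by 1.46 (1.25 to 1.66) and 1.04 (0.83 to 1.25), and the groups did not overlap. The call of Msh3 in ES cells was close to the threshold, at 0.95 after another quantile normalization, 0.92 with centred arrays and 0.99 without ES array 2 or 3. Pms2, part of the endonuclease that acts after recognition, rose by 1.15 (0.85 to 1.44) in dedifferentiated and 1.15 (0.86 to 1.45) in ES cells.

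Of the 8 checkpoint genes, 2 rose in dedifferentiated and 5 in ES cells, against 8.79% and 8.85% of all genes. The median differences of the 8 were 0.81 and 1.13. Chek1, the kinase that restrains the cycle when replication stalls, had 8.62, 8.51 and 8.63 in dedifferentiated and 8.30, 8.68 and 8.81 in ES cells, against 6.68, 6.41 and 6.76 in fibroblasts. Both groups lay above the fibroblasts and overlapped each other. Chek1 rose by 1.97 (1.68 to 2.26) in dedifferentiated and by 1.98 (1.69 to 2.27) in ES cells. Mdc1, the scaffold that spreads the break signal along chromatin, rose by 1.45 (1.28 to 1.62) and 1.89 (1.72 to 2.06).

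Chek2, the kinase that Atm activates, had 8.43, 8.36 and 8.30 in dedifferentiated and 8.64, 9.11 and 9.16 in ES cells, against 7.63, 7.44 and 7.62 in fibroblasts. The 3 groups did not overlap, and only the ES difference passed the size threshold, at 1.41 (1.13 to 1.69) against 0.80 (0.52 to 1.09) for dedifferentiated cells. Atr, the kinase that senses single-stranded DNA, differed by 0.78 in dedifferentiated and rose by 1.14 in ES cells. Its activator Topbp1 differed by 0.94 in dedifferentiated and rose by 1.11 in ES cells, or by 0.99 with arrays centred on their median. Atm, the kinase activated by breaks, differed by 0.82 and 0.73, and Trp53bp1, which steers breaks towards end joining, by 0.79 and 0.72. Clspn, the adaptor through which Atr activates Chek1, differed by -0.12 (-0.33 to 0.10) in dedifferentiated and -0.19 (-0.41 to 0.02) in ES cells.

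In base excision and single-strand break repair, 3 of 5 genes rose in each comparison, against 8.79% and 8.85% of all genes. Parp1 (chr1:180568891-180600999), which marks broken strands with ADP-ribose chains, had 10.20, 10.15 and 10.14 in dedifferentiated and 10.33, 10.39 and 10.49 in ES cells, against 7.78, 7.88 and 7.70 in fibroblasts. The groups did not overlap, and the gap to fibroblasts was far wider than the gap between the other groups. Parp1 rose by 2.37 (2.20 to 2.55, 5.19-fold, adjusted p = 3.2e-10, limma) in dedifferentiated and by 2.62 (2.45 to 2.79, 6.14-fold) in ES cells. Ung, the glycosylase that removes uracil from DNA, rose by 1.68 and 1.59, and Xrcc1, the scaffold of single-strand break repair, by 1.12 and 1.22. Lig3, the ligase bound to that scaffold, differed by 0.81 and 0.69.

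Neil3, a glycosylase for oxidised bases, had 5.44, 5.41 and 5.15 in dedifferentiated and 5.70, 5.75 and 5.92 in ES cells, against 6.01, 5.72 and 5.99 in fibroblasts. The dedifferentiated arrays lay below all the others, while ES and fibroblast arrays overlapped. With -0.57 (-0.81 to -0.33, adjusted p = 0.00094, limma) it had the lowest difference of the 46 genes in dedifferentiated cells, although not of the called size, and -0.11 (-0.36 to 0.13) in ES cells.

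The end joining genes were mixed, with 2 of 6 higher in dedifferentiated and 3 in ES cells, against 8.79% and 8.85% of all genes. The median differences of the 6 were 0.52 and 0.66. Xrcc5, the larger subunit of the Ku ring that caps broken ends, had 9.61, 9.48 and 9.58 in dedifferentiated and 9.27, 9.46 and 9.66 in ES cells, against 7.46, 7.55 and 7.62 in fibroblasts. It rose by 2.01 (1.79 to 2.24) and 1.92 (1.69 to 2.14), with ES arrays that enclose the dedifferentiated ones. Its partner Xrcc6 had 8.10 on all 3 dedifferentiated arrays and 8.36, 8.47 and 8.49 in ES cells, against 7.18, 7.35 and 7.34 in fibroblasts. The difference of Xrcc6 was 0.81 (0.64 to 0.98) in dedifferentiated and 1.15 (0.98 to 1.32) in ES cells, past the threshold in ES cells only. Prkdc, the kinase that Ku recruits, rose by 1.36 (1.14 to 1.58) and 1.66 (1.44 to 1.88).

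The genes of the ligation step, Lig4 and Xrcc4, were not called against fibroblasts. Lig4, the ligase, differed by 0.20 (-0.09 to 0.48) in dedifferentiated and -0.27 (-0.55 to 0.02) in ES cells. Xrcc4, its partner, differed by 0.22 (-0.04 to 0.49) and 0.15 (-0.12 to 0.41). Polq, the polymerase of the alternative end joining route, differed by -0.08 (-0.29 to 0.13) and 0.17 (-0.05 to 0.38). Polq lay near the level of 6 used in the filter on dim genes. Its means were 5.87 in dedifferentiated, 6.11 in ES and 5.95 in fibroblast samples. With Brip1, Fancb and Clspn, the genes Lig4, Xrcc4 and Polq are the 6 that passed an adjusted p of 0.05 (limma) in neither comparison with fibroblasts. The plot of differences from fibroblasts places them beside the genes that rose.

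**Figure D2:**
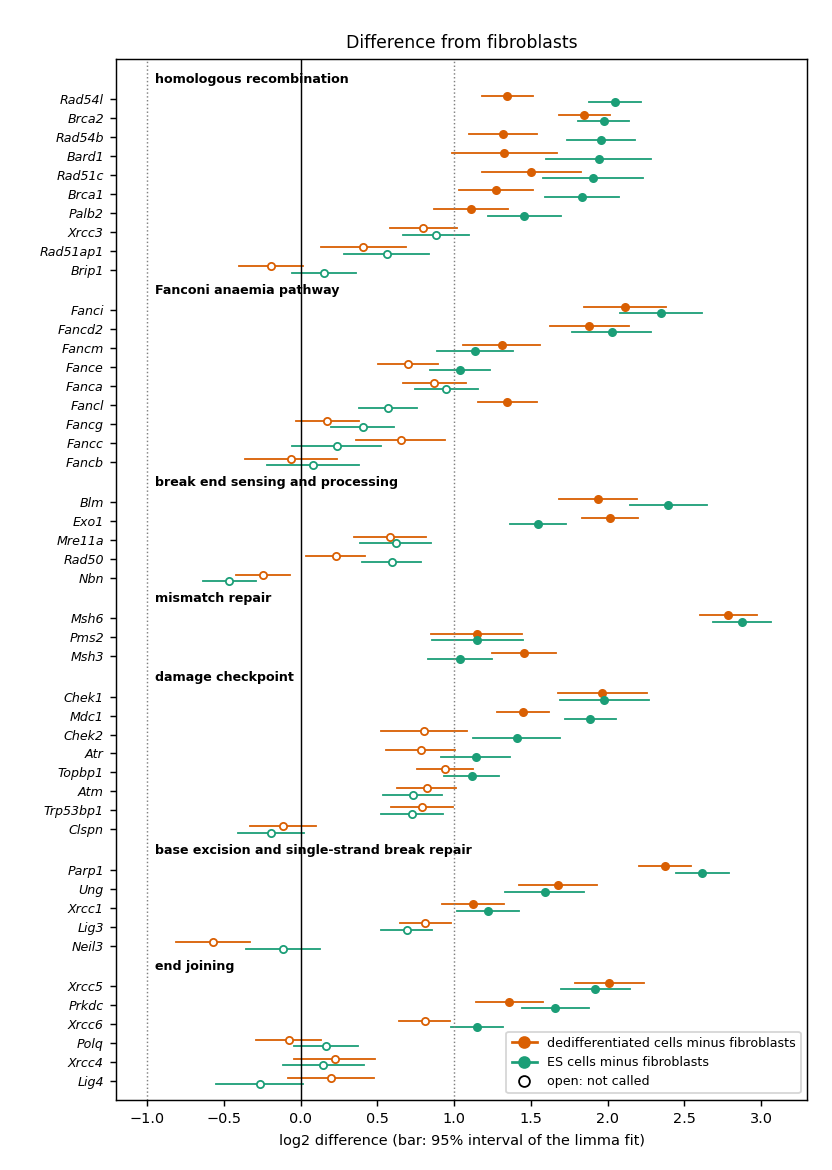
Points are differences from the fibroblast mean in log2 units for dedifferentiated and ES cells, with 95% intervals from the limma fit, for the 46 genes by repair route. Msh6 lies furthest right (2.79 and 2.88), and Neil3 lies furthest left in dedifferentiated cells (-0.57).

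The E2F words described above stood in 6 of the 19 genes with a window that rose in dedifferentiated cells (31.6%) and in 5 of the 21 that were not called (23.8%). For ES cells the numbers were 9 of 23 (39.1%) and 2 of 17 (11.8%). Both uncalled genes with a word in the ES comparison are Clspn and Fancg. These shares were not tested.

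Other genes of the same routes showed where the 46 stand within repair as a whole. Of 116 further repair genes on the lists, 108 were measured, of which 24 were higher and 2 lower in dedifferentiated cells and 29 were higher and 1 lower in ES cells than in fibroblasts. Their shares of higher genes were 22.2% and 26.9%, against 8.79% and 8.85% of all genes. Their median differences were 0.46 and 0.59, against 1.02 and 1.14 for the 46. Among 20 other checkpoint and break signalling genes, 11 rose in dedifferentiated and 10 in ES cells, led by Rif1, which protects broken ends and stalled forks (3.23 and 2.89), and Rad9b, a subunit of a clamp that activates Atr (2.68 and 2.71). Of 24 other recombination genes and structure-specific nucleases, 5 and 6 rose, among them Dna2, a nuclease and helicase of end resection (2.26 and 2.27), and Fignl1 (2.13 and 1.72).

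The routes that excise damaged bases or copy past them, and the remaining lists, gave these counts. Over all genes, 8.79% rose in dedifferentiated and 8.85% in ES cells. The shares for nucleotide excision repair (11.8% in each) and other Fanconi and crosslink repair genes (9.09% in each) were near these. Of 17 nucleotide excision repair genes, 2 rose in each comparison, with Gtf2h3, a subunit of the general factor TFIIH, at 1.40 in dedifferentiated cells and Ddb2, a sensor of ultraviolet lesions, at 1.66 in ES cells. Of 18 other base excision genes, 2 rose and 1 fell in dedifferentiated cells and 6 rose and 1 fell in ES cells. Lig1, the replicative ligase, rose by 1.76 and 1.67, and Parp3 was the gene that fell, with -3.34 and -3.42. Of 10 genes of translesion synthesis and direct reversal, 2 rose and 1 fell in dedifferentiated cells and 3 rose in ES cells. Rev1, a scaffold of the bypass polymerases, rose by 2.17 and 2.39 and Poli by 1.62 and 2.66. Polh, the polymerase that copies past ultraviolet lesions, fell by 1.32 in dedifferentiated cells and differed by -0.09 in ES cells. Of 11 other Fanconi and crosslink repair genes, 1 rose in each comparison, with Cenps at 1.203 in dedifferentiated and Ube2t at 1.71 in ES cells. Of 4 other mismatch repair genes, Pms1, a relative of Pms2, was the 1 that rose in each, by 1.29 and 1.54, and the medians of the 4 were 0.53 and 0.70. Of 4 other end joining genes, 0 rose or fell in either comparison by limma, also at an unadjusted p under 0.05 with that size.

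Genes of the cell cycle differed along with the repair genes. Of 23 replication genes, 15 were higher and 0 lower in dedifferentiated cells, and 13 were higher and 1 lower in ES cells, with median differences of 1.31 and 1.13. Their mean log2 level was 8.73 to 8.77 on dedifferentiated, 8.52 to 8.67 on ES and 7.66 to 7.74 on fibroblast arrays. Mcm10, which starts the replicative helicase, rose by 2.26 and 2.16, and Tyms, which makes thymidylate, fell by 1.28 in ES cells. Of 17 mitosis genes, 7 were higher in dedifferentiated and 14 in ES cells, with medians of 0.95 and 1.53 and mean levels of 8.78 to 8.88 on dedifferentiated, 9.08 to 9.31 on ES and 7.74 to 7.84 on fibroblast arrays. The spindle checkpoint kinase Bub1 rose by 1.83 and 2.12. The repair genes' share of higher genes was thus 23 of 46, beside 15 of 23 for replication and 7 of 17 for mitosis in dedifferentiated cells. Over all genes it was 8.79% in dedifferentiated and 8.85% in ES cells. The part of the cell cycle in the repair results was not tested.

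**Figure D3:**
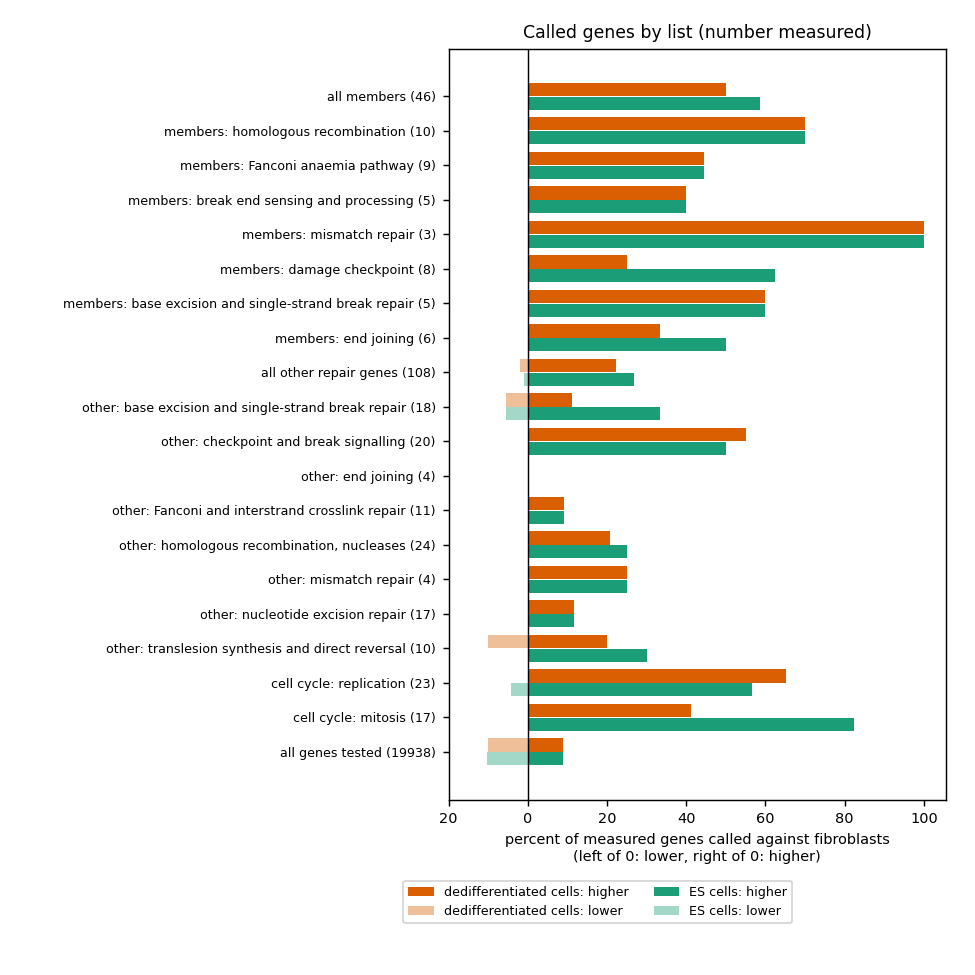
Bars give the percent of measured genes of each list that were higher (right of 0) or lower (left of 0) than in fibroblasts by at least 1 log2 unit at an adjusted p under 0.05, for dedifferentiated (upper bar) and ES cells, with the number measured in brackets. The share of higher genes over all genes was 8.79% and 8.85%, and mismatch repair had 3 of 3 genes of the set but 1 of 4 others higher in both.

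The last comparison asked how close the dedifferentiated cells came to ES cells. None of the 46 genes differed between them by the size and p used above (0 higher, 0 lower by limma), against 1.01% of all genes higher and 0.547% lower. At an unadjusted p under 0.05 and that size the counts were also 0, and with no minimum size 6 were higher and 19 lower at an unadjusted p (15.8% and 14.7% of all genes). All 46 differences had a 95% interval within 1 log2 unit of 0, as did 96.2% of all genes, and 31 lay within 1.5-fold (67.4%, against 80.7% of all genes). At an adjusted p under 0.05 and 1.5-fold, 1 gene was higher and 4 were lower (3.84% and 3.31% of all genes). The median difference was -0.14 log2 units, against -0.00 for all genes.

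Smaller differences were found at an adjusted p under 0.05 (limma). There 15 of the 46 genes were lower and 5 higher in dedifferentiated than in ES cells, against 10.0% and 11.2% of all genes, and the arrays did not overlap for 20 lower and 5 higher (15.6% and 16.9% of all genes). Single arrays moved these counts. The number lower was 8 without dedifferentiated array 2, 7 without dedifferentiated array 3, 9 without ES array 2, 8 without ES array 3 and 19 without ES array 1. The number higher was 3 without dedifferentiated array 2 or 3 and 3 without ES array 1 or 2. Of the 15 lower genes, 6 passed with each of the 9 arrays left out in turn (Rad54l, Rad54b, Chek2, Brca1, Mdc1 and Xrcc6), as did 3 of the 5 higher ones (Fancl, Exo1 and Msh3).

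Of the routes in the set, homologous recombination held the most genes lower than in ES cells. All 10 measured members had a difference below 0, with a median of -0.38. At an adjusted p under 0.05 (limma), 6 of them were lower, against 10.0% of all genes. That count was 3 without dedifferentiated array 3, ES array 2 or ES array 3. Over all genes tested, 10059 of 19938 differences were below 0. The 24 other recombination genes and nucleases did not share this direction, with 13 above 0, 11 below and a median of 0.05. Of them, 4 were higher and 2 lower at an adjusted p under 0.05 (limma), against 11.2% and 10.0% of all genes. All 10 genes of translesion synthesis and direct reversal were also below 0, with a median of -0.43. Rad54l differed by -0.70 (-0.87 to -0.53, adjusted p = 9.9e-05), Rad54b by -0.64 (-0.86 to -0.42, adjusted p = 0.00097) and Brca1 by -0.56 (-0.81 to -0.32, adjusted p = 0.0037, limma). Bard1 differed by -0.61 (-0.96 to -0.27), Palb2 by -0.35 and Brip1 by -0.34. Brca2 differed by -0.13 (-0.29 to 0.04) and Xrcc3 by -0.08 (-0.30 to 0.13), with intervals that include 0.

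Outside recombination the lower genes came from the checkpoint, end processing, end joining, base excision and Fanconi groups. Chek2 differed by -0.60 (-0.89 to -0.32), Mdc1 by -0.44 (-0.61 to -0.27) and Atr by -0.36 (-0.58 to -0.13). Blm differed by -0.46, Neil3 by -0.46, Rad50 by -0.36, Xrcc6 by -0.34, Fance by -0.34 and Parp1 by -0.24. In the other direction, Fancl differed by 0.78 (0.59 to 0.97, adjusted p = 0.00012, limma), Exo1 by 0.47 (0.29 to 0.66), Lig4 by 0.46 (0.18 to 0.75), Msh3 by 0.42 (0.21 to 0.63) and Fancc by 0.42 (0.13 to 0.71). These differences are shown in the plot of dedifferentiated against ES cells.

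**Figure D4:**
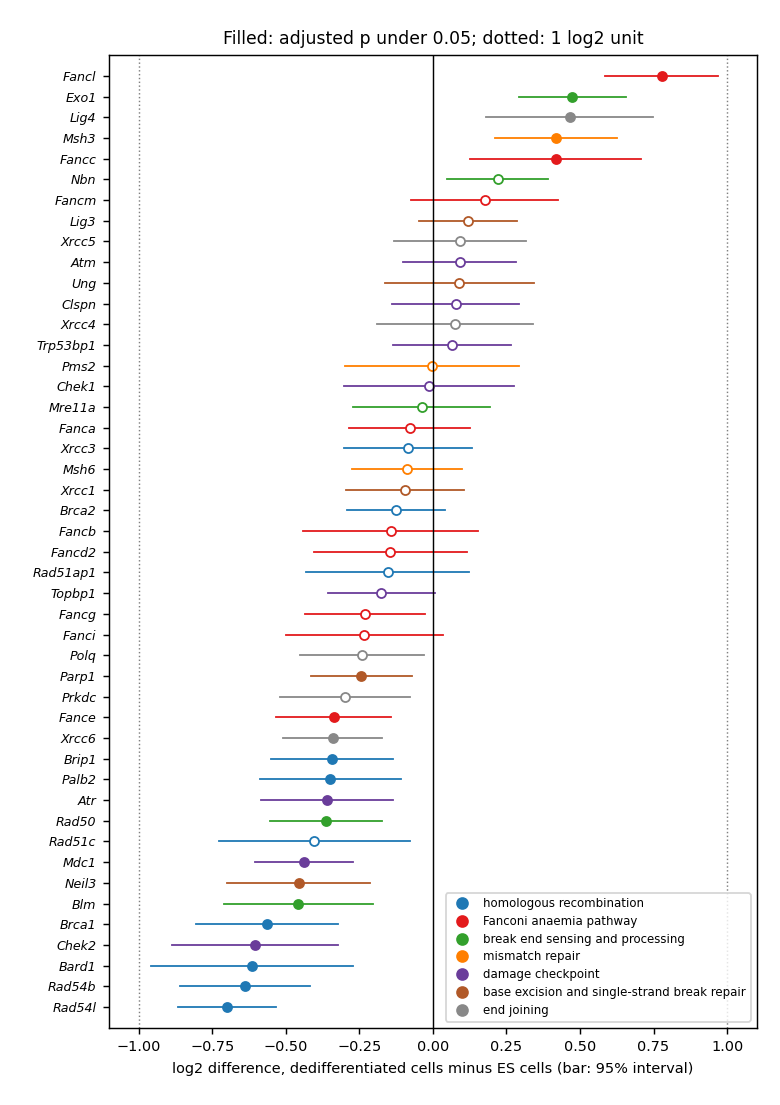
Points are dedifferentiated minus ES differences in log2 units with 95% intervals for the 46 genes by repair route. They run from -0.70 for Rad54l to 0.78 for Fancl, and every interval lies within 1 log2 unit of 0.

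The ES arrays were less alike in these genes than the dedifferentiated arrays. The median SD of the 46 genes over 3 arrays was 0.0603 in dedifferentiated, 0.163 in ES and 0.109 in fibroblast samples, against 0.0762, 0.127 and 0.105 over all genes. ES array 1 was the lowest of its group for 37 of the 46 genes (80.4%, against 40.3% of all genes), and ES array 3 the highest for 36 (78.3%, against 32% of all genes). The median level of the 46 genes was 7.10, 7.13 and 7.21 on the dedifferentiated, 7.08, 7.29 and 7.43 on the ES and 6.27, 6.27 and 6.31 on the fibroblast arrays. ES arrays 2 and 3 thus lay above every dedifferentiated array by this median, and ES array 1 below them.

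Of the 108 other repair genes, 1 was higher and 4 were lower in dedifferentiated than in ES cells at an adjusted p under 0.05 and at least 1 log2 unit (limma). Their shares were 0.926% and 3.7%, against 1.01% and 0.547% of all genes. Gen1, a resolvase of recombination intermediates, was higher by 1.097. Mbd4, a glycosylase for mismatched thymine, differed by -1.31, Polh by -1.23, Ube2t, the conjugating enzyme of the Fanconi pathway, by -1.19 and Poli by -1.04. Of the 23 replication genes, 7 were higher and 2 lower at an adjusted p under 0.05 (limma), against 11.2% and 10.0% of all genes. The median of the 23 was 0.10. Of the 17 mitosis genes 10 were lower and 0 higher by the same rule, with a median of -0.39. The part of this mitosis difference in the repair results was not tested.

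Some repair genes begin head to head with a neighbour on the opposite strand, and each was set beside that neighbour. With starts at most 1000 bases apart, 14 of the 40 genes with a start window had a measured protein-coding neighbour of this kind. Of these 14 repair genes, 5 rose in dedifferentiated and 7 in ES cells. Of the 14 neighbours, 1 rose and 0 fell in dedifferentiated and 2 rose and 1 fell in ES cells. Over all genes, 8.79% rose and 10.1% fell in dedifferentiated cells, and 8.85% rose and 10.4% fell in ES cells. Some neighbours were dim, such as 1700065D16Rik beside Atr (group means 3.32 to 3.40) and Pinlyp beside Xrcc1 (4.29 to 4.44). The neighbours' median difference was 0.02 in dedifferentiated and -0.03 in ES cells.

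Palb2 starts 95 bases from Dctn5, a dynactin subunit, and differed by 1.11 in dedifferentiated and 1.46 in ES cells, where Dctn5 had -0.12 and -0.21. Pms2 starts 162 bases from Aimp2, and had 1.15 and 1.15 where Aimp2 had 0.40 and 0.03. Brca1 had 1.27 and 1.84, where Nbr1, an autophagy receptor 699 bases away, had 0.27 and 0.70. In these pairs the repair gene rose and its neighbour was not called. Xrcc6 and Desi1, 149 bases apart, had differences of opposite sign, 0.81 and -0.51 in dedifferentiated and 1.15 and -0.34 in ES cells. Atm differed much as its neighbour Npat, a histone gene activator 376 bases away, with 0.82 beside 0.67 in dedifferentiated and 0.73 beside 0.75 in ES cells.

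Rad51c and Tex14, a gene of the germline with its start 559 bases away, rose together, by 1.503 and 1.506 in dedifferentiated and 1.91 and 1.99 in ES cells. Tex14 was dim, with mean log2 values of 5.48 in dedifferentiated cells, 5.97 in ES cells and 3.97 in fibroblasts. Each lies below the level of 6 used in the filter on dim genes. Zfyve21, 291 bases from Xrcc3, rose by 1.26 in ES cells where Xrcc3 differed by 0.88. D6Wsu163e, 379 bases from Rad51ap1, fell by 1.07 in ES cells where Rad51ap1 differed by 0.56.

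**Figure D5:**
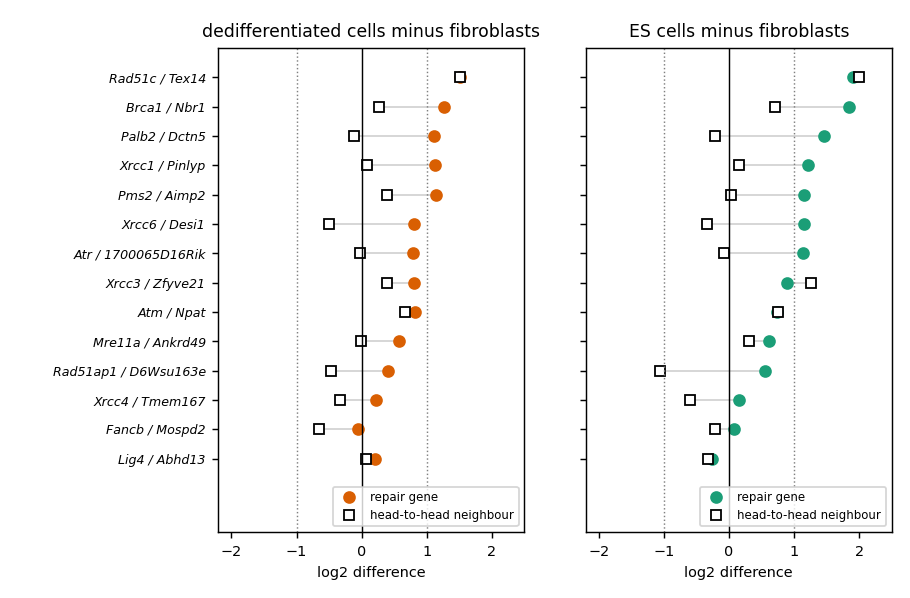
Each row is a repair gene (filled circle) and its head to head neighbour (open square), with differences from fibroblasts in log2 units on the horizontal axis, for dedifferentiated cells (left) and ES cells (right); dotted lines mark 1 log2 unit. Rad51c and Tex14 coincide (1.503 and 1.506 in dedifferentiated cells), while Palb2 and Dctn5 lie apart (1.11 and -0.12).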

How the data were processed

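RNA was read on 9 one-colour Affymetrix Mouse Gene 1.0 ST arrays. The deposited values are log2 expression values, made by the authors with RMA in Affymetrix Expression Console 1.1, per the submitters' processing notes. RMA gives every array the same distribution of probe values, so a shift shared by all transcripts is hidden, and it compresses the differences of dim probe sets. There is no detection call, and levels were not compared between genes.

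Of 35557 rows, 21789 had 1 symbol in the platform annotation, 1621 had several and 12147 were not listed there. For 999 genes with several rows the one with the highest mean was used, leaving 19938 genes. Groups followed the sample titles. All 9 arrays entered 1 fit in limma 3.58.1 (R 4.3.3), checked on simulated data. Genes were called at a Benjamini-Hochberg adjusted p under 0.05 over all genes and at least 1 log2 unit. Alternatives were other normalizations, thresholds, filters and fits, and each array left out in turn.

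The repair genes and all lists were chosen with earlier results of these data known. All 46 measured genes could be named. From the other repair and cell cycle lists, up to 2 called genes in each direction were named for each comparison, those of greatest size. Head to head neighbours and the promoters shown were chosen after values were seen.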

Additional observations from a re-analysis of the deposited data

How the results depend on the processing

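Leaving out each of the 9 arrays in turn gave 23 to 23 higher repair genes in dedifferentiated cells and 26 to 28 in ES cells against fibroblasts, and 0 to 0 for all other counts at the size used. Without a minimum size, 37 were higher and 2 lower in dedifferentiated cells and 1 lower in ES cells, and 5 were higher and 15 lower in dedifferentiated than in ES cells. At 1.5-fold, 1 was higher and 4 lower in dedifferentiated than in ES cells. Alternatives added after the data were seen gave, for that comparison at an adjusted p under 0.05, 3 higher genes with only the 2 groups fitted, 4 higher and 13 lower with the replicate number as a block, and leave-one-out ranges of 3 to 5 higher and 7 to 19 lower. The block changed no count at the size used. Each array's deviations from its group mean, gene by gene, were also correlated between groups. These correlations were -0.204 to 0.25 for same-numbered arrays and -0.241 to 0.324 for the others. Between dedifferentiated and fibroblast arrays alone, they were 0.101, 0.154 and 0.038 for same-numbered arrays and -0.118 to 0.043 for the others. The main fit used no pairs, since the labels state none, and whether dedifferentiated and fibroblast arrays are paired was not settled. Of the genes called against fibroblasts, 21 of 23 in dedifferentiated and 24 of 27 in ES cells kept their call under every alternative, thresholds aside, and none changed sign. Centring arrays on their medians moved the median of all genes to -0.11 in dedifferentiated and -0.10 in ES cells against fibroblasts, and the cause of the calls it ended was not tested. The filter on dim genes left 9606 genes and 45 of the 46, without Neil3. With 3 arrays a group and no detection call, small differences of dim genes are limited by these data.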

Other observations

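A shorter word than those of E2F, CCAAT, which the factor NF-Y is known to bind in promoters of cell cycle genes, was also searched on both strands of the start windows. It stood in 22 of the 40 repair genes with a window (55.0%), against 37.4% of all windows and 38.2% of the windows of protein-coding genes. Among the genes with a window it was present in 10 of the 19 that rose in dedifferentiated cells (52.6%) and in 12 of the 21 that were not called (57.1%). In ES cells it was present in 13 of 23 that rose (56.5%) and in 9 of 17 not called (52.9%). None of these shares was tested.

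By group mean, 28 of the 46 repair genes had the order ES cells highest, dedifferentiated cells next and fibroblasts lowest, and 11 had dedifferentiated cells highest and fibroblasts lowest. The highest group mean was in dedifferentiated cells for 12 genes, in ES cells for 31 and in fibroblasts for 3. These orders were not counted over all genes, so they are not shown to be particular to repair genes.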
